A study of Mus musculus with 9 samples.

Results

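Clta, Sgip1, Dab2 and Tom1l2 encode proteins that build clathrin coats, bend membrane, pick cargo at the cell surface and sort it on endosomes. The 4 genes were taken by symbol from the exon, peak and mutation site tables of a study of the splicing regulator Mbnl2 in mouse hippocampus, and they were chosen because exons of theirs are listed there. They are 4 of 5017 genes named in those tables. Together they hold 6 of 289 distinct cassette exons, which are exons that a transcript can include or skip, in the joint list of RNA-seq and splicing microarray results. They also hold 5 of 468 array events, 8 of 10407 peaks of CLIP tags and 0 of 557 crosslink mutation sites. The listed changes of these exons chose the genes, so they are given here as a description and carry no test.

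The RNA-seq compared hippocampi of 3 wild-type mice with those of 3 homozygous Mbnl2 knockout mice, which carry the deletion ΔE2 on both alleles. The CLIP libraries, which hold short RNA tags recovered with Mbnl2 after ultraviolet crosslinking, came from hippocampi of wild-type mice, 3 libraries in all. Every label gives female sex and a mixed background of C57BL/6 and 129 SvlmJ, although the series text calls the CLIP mice BL6 and speaks of brains. RNA-seq mice were 2 to 3 months old and CLIP mice 11 to 12 weeks. No knockout or input CLIP library is among these samples, and the sources used here do not say whether a CLIP library is from 1 animal.

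Clathrin forms a lattice of heavy and light chains around an invaginating patch of membrane, and adaptor proteins link that lattice to lipids and to the tails of receptors. In neurons this route retrieves synaptic vesicle proteins and removes receptors from the surface, and adaptors with ubiquitin- and clathrin-binding parts then sort cargo on endosomes. Muscleblind proteins such as Mbnl2 bind pre-mRNA, and, from work on other genes, they are known to favour an exon when bound downstream of it and to favour skipping when bound upstream of it or within it.

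The wild-type RNA-seq libraries held 18148581 to 27844309 read pairs and the knockout libraries 8299323 to 21705237, with the third knockout library the shallowest. The CLIP libraries 1, 2 and 3 held 159144, 209430 and 334857 unique tags. These libraries share tags: 12.3%, 19.8% and 14.3% of the tags of libraries 1, 2 and 3 have the same position, strand and 4-letter name ending as a tag of another library. Among tags that libraries 2 and 3 placed at the same position, 56.5% had the same ending, against 2.24% from the frequencies of the 64 endings. The cause was not tested. Counting such a tag once left 648110 of 703431 tags (92.1%), and the main counts in windows and peaks are given below also with such tags counted once where that changed them. Of markers for hippocampal regions, 4 of 6 carried tags in peaks, summing to 371, 344 and 317 tags per 1000000 unique tags (CPM), while Neurod2 and Neurod6 had none. Neuron markers (6 of 8) summed to 1869 to 2689 CPM over the libraries, oligodendrocyte markers (4 of 6) to 1732 to 2733 CPM and astrocyte markers (5 of 6, with Gfap at none) to 663 to 886 CPM.

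Exon values came as 1 comparison of the genotypes and give no value for a single mouse, so how far mice of a genotype differ is unknown. The files do not name the genotype behind a sign either. Condition A of the read table was taken as wild type, since it held 1.44 times the reads of condition B over 151 events and the wild type held 1.42 times the junction fragments of the knockout. With that reading, the authors' deposited table lists the 54 nt exons of Mbnl1 and Mbnl2 with changes of -0.300 and -0.393, that is, with more inclusion in the knockout. Skipping of these exons is known to depend on muscleblind proteins. If the reading were wrong, every direction given here for an exon would turn over. Changes are fractions of transcripts, positive where the knockout included the exon less. In bulk tissue, a change within a cell type and a change in the share of that cell type cannot be told apart.

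In the knockout, 4 exons of the 4 genes were listed with less inclusion by RNA-seq (in Sgip1 both exons, in Dab2 1 and in Tom1l2 1) and 1 exon of Tom1l2 with more. The sixth, of Clta, was listed by the array alone. The authors' RNA-seq list takes an exon whose false discovery rate (FDR) is at most 0.05, whose junctions have a coverage of 20 or more and whose inclusion changed by 0.1 or more. Of all 289 exons, 72% are in the RNA-seq list, 36.7% with less inclusion, and 42.6% are in the array list. Of the 6, 5 are in the RNA-seq list and 3 in the array list. Both lists hold the 498 nt exon of Sgip1 and the 60 nt exon of Tom1l2, and 14.5% of all exons are in both. The array sheet gives a q-value of at most 0.05 to 4 of the 5 events of these genes, 3 of them toward less inclusion, against 89.5% and 47% of all 468 events. Nothing is read from these shares, since the genes were chosen from them.

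Clta encodes clathrin light chain A, a subunit that decorates the heavy chain and tunes lattice assembly, and its neuronal form carries a short insert made by alternative exons. Its 36 nt exon lies on chromosome 4 (44044272 to 44044307, plus strand, mm9). Pooled reads in the authors' deposited table held the exon in 766 of 843 reads in wild type, or 90.9% (95% Clopper-Pearson interval 88.7 to 92.7%). In the knockout they held it in 576 of 665, or 86.6% (83.8 to 89.1%). The exon was thus in most reads of this event in both genotypes, with a difference of 4.25 percentage points (1.05 to 7.56, counting error only). These are shares of reads and not of transcripts, and the event starts at the neighbouring exon described below. With inclusion reads divided by 2, for the 2 junctions of the included form, the difference was 6.87 points. The authors' deposited table gives a change of 0.0605 with an FDR of 0.00417, under the minimum of 0.1, and an array score of 0.95 (q-value 0), the score that put the exon in the array list. The size of its RNA-seq change ranks 245 of 287 listed exons.

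The neighbouring 54 nt exon of Clta, 1131 nt upstream at 44043087 to 44043140, is the exon that flanks the 36 nt event. It is in no list of changed exons, and its reads were in the array sheet. Authors' pooled reads there held it in 737 of 908 in wild type, or 81.2% (78.5 to 83.7%), and in 678 of 794 in the knockout, or 85.4% (82.7 to 87.8%). Its difference of -4.22 percentage points (-7.74 to -0.658) had the opposite sign to that of the 36 nt exon, and was -6.20 points with inclusion reads divided by 2. These are not separate measurements, since both events end at the same downstream exon and the stretch of the 54 nt event contains the 36 nt exon. In the authors' deposited table its RNA-seq score of 0.42 (q-value 0.02) has the sign of more inclusion in the knockout. Its array score there, 0.015 in size and also toward more inclusion, has a q-value of 0.226. A further Clta event of 118 nt was on the array alone, with a score of 0.475 in size toward less inclusion and inclusion intensities of 110 and 158 against skipping intensities of 6758 and 6798 in the authors' deposited table. Its inclusion probes thus made up 1.60% and 2.27% of the summed intensity of the conditions A and B of the array. The lengths of 36 and 54 nt are divisible by 3 and 118 is not.

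Sgip1 encodes a membrane-binding endocytic protein of the brain, related to the FCHo proteins that start clathrin-coated pits, and it is known to interact with endophilins and to slow internalization of the cannabinoid receptor CB1. Its 498 nt exon (chromosome 4, 102593627 to 102594124, plus strand) showed the widest gap between genotypes among members with pooled reads. In the authors' deposited table it was in 129 of 181 reads in wild type, or 71.3% (64.1 to 77.7%), and in 69 of 140 in the knockout, or 49.3% (40.7 to 57.9%). The intervals do not overlap, and the difference was 22.0 percentage points (11.2 to 32.2, counting error only). With inclusion reads divided by 2, the difference was 22.7 points. Among all 151 events with pooled reads, 117 (77.5%) have a read score with a q-value of at most 0.05, this one included. The gene was chosen from this contrast, so nothing is read from the gap. The authors' deposited table gives a change of 0.231 (FDR 3.78e-10) and an array score of 1.11 (q-value 0), which ranks 25 of 468 array events by size. The exon adds 166 codons in frame, and 4 of the 289 listed exons are this long or longer, against a median of 75 nt.

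A second Sgip1 exon, of 84 nt at 102534461 to 102534544, lies 59082 nt upstream of the first. The authors' deposited table gives it a change of 0.215 with an FDR of 0.0400, close to the limit, and no array score. Both Sgip1 exons were thus listed in the same direction and with similar sizes of change, on very different FDRs. No pooled reads were listed for the 84 nt exon.

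Dab2 encodes an adaptor that binds clathrin, the AP-2 complex and the tails of LDL receptor family members. It is known in forms with and without a long central segment that holds its clathrin and AP-2 binding motifs. Its 654 nt exon (chromosome 15, 6379296 to 6379949, plus strand) has the largest change of the 6 exons, 0.416 with an FDR of 0.0406 in the authors' deposited table. The size ranks 7 of 287 listed exons, while the FDR is near its limit of 0.05. It is 1 of 2 listed exons of at least this length, adds 218 codons in frame, and has neither an array score nor pooled reads here, so RNA-seq alone speaks for it.

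Tom1l2 encodes a protein of the Tom1 family, which binds ubiquitinated cargo, clathrin and the adaptor Tollip on endosomes. It has listed exons in both directions, as have 3 of 23 genes with several exons in the RNA-seq list (13%). The 63 nt exon (chromosome 11, 60052512 to 60052574, minus strand) had less inclusion in the knockout, with a change of 0.235 (FDR 2.05e-06) and no array score in the authors' deposited table. The 60 nt exon (60046400 to 60046459), which lies 6052 nt downstream in the transcript, had more inclusion, with a change of -0.175 (FDR 0.00125) and an array score of -1.32 (q-value 0), which ranks 18 of 468 events by size.

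Both Tom1l2 changes were measured over overlapping stretches. The 60 nt exon is itself a flanking exon of the 63 nt event, and the stretch between the flanks of the 60 nt event contains the 63 nt exon. Pooled reads at the 60 nt exon were few. In the authors' deposited table it was in 55 of 112 reads in wild type, or 49.1% (39.5 to 58.7%), and in 41 of 72 in the knockout, or 56.9% (44.7 to 68.6%). The intervals overlap, and the difference of -7.84 percentage points (-21.9 to 6.85) includes 0. With inclusion reads divided by 2, it was -7.26 points. The RNA-seq score of the same event, -0.56 with a q-value of 0.299 in the authors' deposited table, has the sign of less inclusion. It is 1 of 10 events of 151 whose score and pooled reads differ in sign. The larger inclusion in the knockout thus rests on the listed change and the array.

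**Figure D1:**
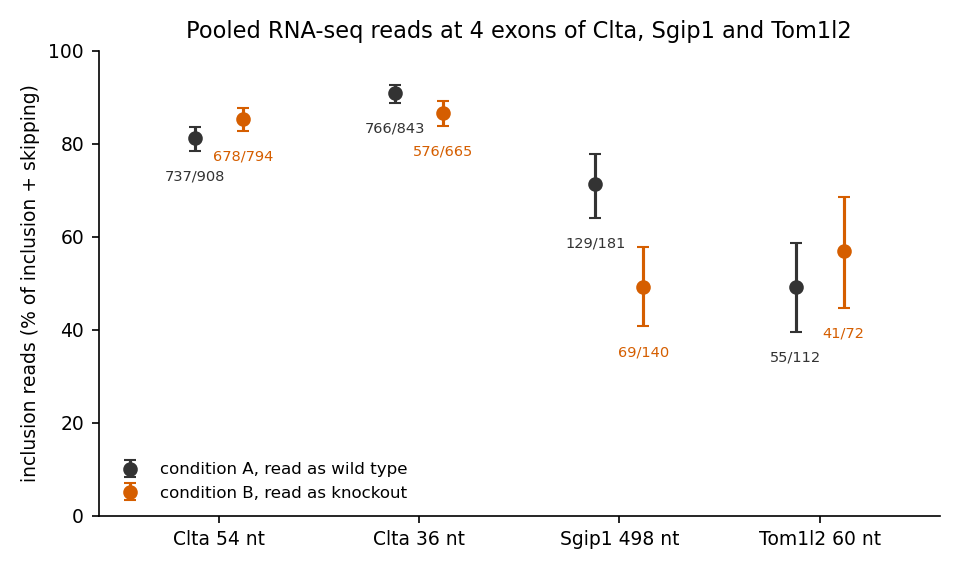
Share of inclusion reads (vertical axis, %) among inclusion and skipping reads pooled by the authors over 3 libraries a condition, for 4 exons (horizontal axis). Points are shares, bars are 95% Clopper-Pearson intervals of counting error, and the printed fractions are inclusion reads over all reads. The Sgip1 intervals, 64.1 to 77.7% and 40.7 to 57.9%, do not overlap, and the 2 Clta exons, whose events overlap and share an end, differ by 4.25 and -4.22 percentage points.

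All 6 listed exons of these genes have a length divisible by 3, with 12 to 218 codons, as have 212 of all 289 listed exons (73.4%). The sizes of change of the 5 exons in the RNA-seq list, 0.175 to 0.416, compare with a median of 0.184 over the 208 exons of that list, and 4 of the 5 lie above it. Where both platforms gave a value, in the 36 nt Clta, 498 nt Sgip1 and 60 nt Tom1l2 exons, the signs of RNA-seq change and array score were the same. Nothing is read from this match, since the genes were chosen from these lists. The share of matching signs over all listed exons is not given here. The remaining 3 exons have no array score, so their direction rests on RNA-seq alone.

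**Figure D2:**
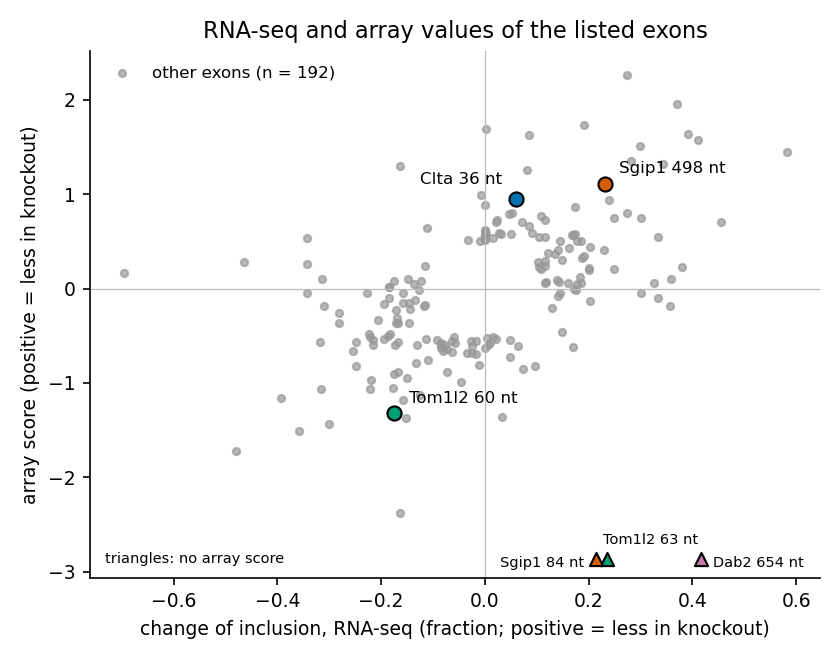
Change of inclusion by RNA-seq (horizontal axis, fraction of transcripts) against the array score (vertical axis, no unit) from the authors' deposited table, both positive where the knockout had less inclusion. Large circles are exons of Clta, Sgip1 and Tom1l2, grey points the 192 other exons with both values, and triangles at the bottom mark 3 exons with no array score. Clta (0.0605 and 0.95) and Sgip1 (0.231 and 1.11) sit at upper right and the 60 nt Tom1l2 exon (-0.175 and -1.32) at lower left.

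CLIP tags around the exons were not used to choose the genes. Tags were counted on the gene's strand, by their centres, in the 1000 nt upstream and the 1000 nt downstream of each exon. The median exon of the list had 2 tags in both windows together, and 65 of 289 exons had none in the windows or the exon. The 498 nt exon of Sgip1 had 1, 1 and 1 tags upstream and 2, 2 and 5 downstream in libraries 1, 2 and 3. Downstream tags outnumbered upstream tags in each library, and 6 of the 9 lay within 200 nt of the exon, where no upstream tag lay. A further 4 tags lay in the exon. Counting shared tags once left 2, 2 and 4 downstream.

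The 36 nt exon of Clta had 1, 0 and 0 tags upstream and 2, 4 and 2 downstream. It too had more downstream in each library. Of those 8 tags, 5 lay in the intron and 3 in the next exon, which starts 965 nt away. Downstream counts were 2, 4 and 1 with shared tags counted once. Clta tags were dense over the event as a whole, at 34.1 ± 15.9 CPM per kb (SD, n = 3) from the upstream flank to the end of the downstream flank. That ranks 3 of 289 exons, against a median of 1.51 CPM per kb, and the peaks described below lie in that stretch. The 54 nt exon of Clta had 0 tags upstream in every library and 3, 1 and 1 downstream, in the intron between both exons, with 4 of the 5 within 200 nt of it. These 5 tags also lie upstream of the 36 nt exon, most of them beyond its window of 1000 nt. In the 2 introns beside the 36 nt exon, the libraries thus had 3, 1 and 1 tags upstream and 1, 3 and 1 downstream. The excess downstream of that exon therefore depends on the window and on the tags in the next exon. Library 3 lost its only tag when shared tags were counted once, which left 3, 1 and 0.

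The 84 nt exon of Sgip1 had 0 tags upstream and 3, 1 and 2 downstream, with 4 in the exon. Of its 10 tags, 6 are among those that libraries share, and counting them once left 3, 1 and 0 downstream, so library 3 no longer showed the difference. Tags over the whole event reached 11.3 ± 0.747 CPM per kb (SD, n = 3), which ranks 17 of 289. The 3 libraries were close to each other there, at 10.6, 11.3 and 12.1 CPM per kb, but on only 5, 7 and 12 tags. That stretch takes in the Sgip1 intron peak described below.

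The 60 nt exon of Tom1l2 had the reverse arrangement, with 2, 3 and 5 tags upstream and 1, 3 and 0 downstream. All 10 upstream tags lay between 18.5 and 155.5 nt of the exon, and within 500 nt no library had a downstream tag. Libraries 1 and 3 had more tags upstream, and library 2 had 3 on each side. Counting shared tags once left 2, 2 and 4 upstream (8 in all) and 1, 3 and 0 downstream (4 in all). Library 2 then had more tags downstream. Among the listed exons of the 4 genes, only this one was listed with more inclusion in the knockout. The unlisted 54 nt exon of Clta also had a larger share of inclusion reads in the knockout (difference -4.22 percentage points). Its tags, 0 upstream and 5 downstream, lay on the other side.

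The 63 nt exon of Tom1l2 had 0 tags in both windows in all libraries, and the 654 nt exon of Dab2 had 1, in library 1 and downstream. A count of 0 in 703431 tags allows up to 4.26 CPM, so tags below that level were not detectable at this depth. No tag on the opposite strand lay in any of these windows.

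Of the 6 exons, 3 had more tags downstream than upstream in each of the 3 libraries, the 36 nt exon of Clta and both exons of Sgip1, against 10.4% of all 289 exons. Among exons with at least 6 tags in the windows, that share was 33.8% of 77 exons, and the same 3 stood among 4 such exons of these genes. For Clta it holds only with tags in the next exon counted, since library 1 had 1 intron tag on each side of the 36 nt exon. With shared tags counted once, 2 of the 6 had it, and no share over all exons is given here for that count. No exon of the 6 had more tags upstream in each library, against 6.23% of all.

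**Figure D3:**
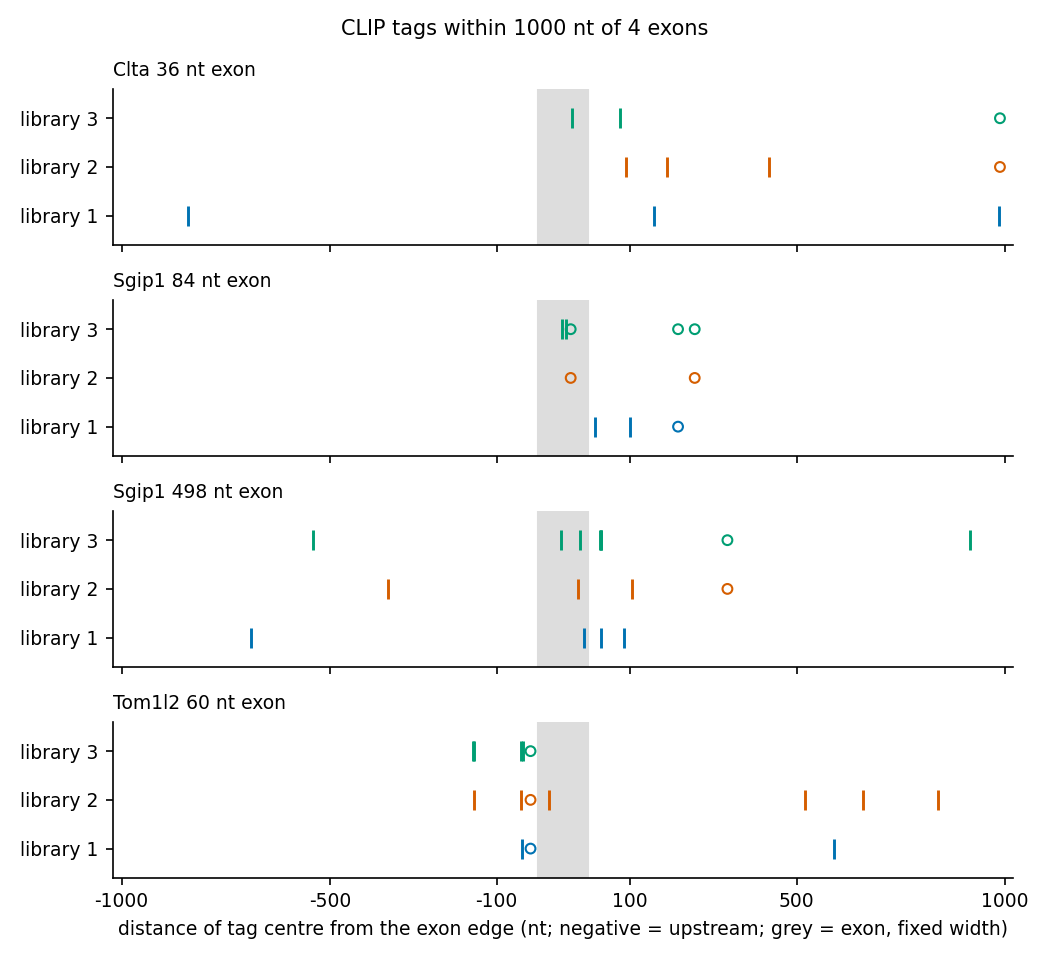
Centres of CLIP tags within 1000 nt of 4 exons (horizontal axis, nt from the nearer exon edge, negative upstream, with the exon drawn at a fixed width in grey), 1 line per library. Ticks are tags of 1 library, open circles tags found at the same position with the same name ending in another library, and tags at the same place overlie each other. The 9 downstream tags of the 498 nt Sgip1 exon and the 10 upstream tags of the 60 nt Tom1l2 exon lie on opposite sides, 6 and 10 of them within 200 nt.

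Downstream and upstream tags were compared across all exons with edgeR's quasi-likelihood test, with the CLIP library as a block and Benjamini-Hochberg adjustment over the 46 exons that had at least 10 tags. It called 18 exons, 13 with more tags downstream (28.3%) and 5 with more upstream (10.9%), and the median log2 ratio of downstream over upstream was 1.13. DESeq2 with its own size factors called 5 downstream and 6 upstream. Neither tested exon of these genes was among the edgeR calls. The 498 nt exon of Sgip1 had a log2 ratio of 1.47 (SE 1.11, edgeR adjusted p = 0.298), near the median of all tested exons. The 60 nt exon of Tom1l2 had -1.25 (SE 0.982, edgeR adjusted p = 0.308), on the other side of 0 from that median. With 12 and 14 tags, neither ratio could be told from 0 at this depth.

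Within 500 nt, where the Tom1l2 exon had 10 upstream tags and 0 downstream, the same edgeR test gave an adjusted p of 0.00333. With shared tags counted once, 8 upstream and 0 downstream tags were left there, under the minimum of 10. The other windows and fits did not pass for that exon. The 36 nt exon of Clta had 9 tags, the 84 nt exon of Sgip1 6 and the Dab2 exon 1, under the minimum of 10. In windows of 2000 nt, Clta had 5 tags upstream and 55 downstream, with a log2 ratio of 3.36 (SE 0.471, edgeR adjusted p = 9.99e-10). With shared tags counted once, 4 and 46 tags were left there, and no test was run on them. That wider window takes in the Clta peaks in the next exon.

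All 4 genes have a peak, a place where tags of the pooled libraries pile up beyond the authors' limit of P below 0.01, as have 70.8% of the 257 genes of the joint list. Of their 8 peaks, 4 lie in 3' untranslated regions (3'UTRs), 3 in introns and 1 in coding sequence. Tags of all 3 libraries overlap 5 of the 8 peaks, also with shared tags counted once, which keeps 68 of 81 tags. That share over the peaks of all genes is not given here, so nothing is read from it. Within 1000 nt of a listed exon lies 1 of the 8, and 1 of 6 exons thus has a peak near it or inside it, against 11.8% of all listed exons. Peak counts are not scaled to the level of the transcript.

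The 2 Clta peaks lie 261 nt apart in the exon that follows the 36 nt exon. The higher one, in the 3'UTR at 44045669, has a height of 21 tags, above 90.3% of all peaks, and held 12.6, 52.5 and 23.9 CPM in libraries 1, 2 and 3, or 29.7 ± 20.6 (SD, n = 3). The other, in coding sequence at 44045408, held 18.9, 28.6 and 5.97 CPM, or 17.8 ± 11.4 (SD, n = 3). Library 2 was highest at both. With shared tags counted once, the heights of 21 and 11 tags became 17 and 9. Coding sequence holds 6.51% of all peaks, 3'UTRs 55.2% and introns 34.0%.

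The 4 Tom1l2 peaks sum to 62.8, 66.8 and 44.8 CPM, or 58.2 ± 11.7 (SD, n = 3), which ranks 653 of 4800 genes with a peak. The mean was 52.8 CPM with shared tags counted once. The peak nearest to a listed exon lies 25 nt upstream of the 60 nt exon (60046484 to 60046493) and held 12.6, 9.55 and 8.96 CPM, or 10.4 ± 1.94 (SD, n = 3). It held 2, 2 and 3 tags, or 2, 1 and 2 with shared tags counted once, so each library contributes to it with few tags. Its upstream place is that of the tags described above, which include its own. The highest Tom1l2 peak, of 17 tags at 60156147 to 60156148, lies 103573 nt upstream of the 63 nt exon in a LINE repeat, where mapping of short tags can be uncertain, and held 25.4 ± 5.42 CPM (SD, n = 3). With shared tags counted once, 13 of its tags were left. The 3'UTR peaks held 10.3 ± 4.37 CPM at 60043249 to 60043252 and 12.1 ± 11.9 CPM at 60042132 (SD, n = 3), the latter with 0 tags in library 3. Counting shared tags once left 7 of 8 tags at 60043249 to 60043252.

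Sgip1 has 1 peak, of 6 tags, in the intron 1017 nt upstream of the 84 nt exon (102533443 to 102533444), just outside the window used above. It held 0, 4.77 and 14.9 CPM, or 6.57 ± 7.63 (SD, n = 3), mostly from library 3. Without library 3 the mean was 2.39 CPM. The windows of 2000 nt, which take it in, had 7 tags upstream and 14 downstream of the 84 nt exon, or 7 and 11 with shared tags counted once (log2 over all tags ratio 1.01, edgeR adjusted p = 0.290).

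Dab2 has 1 peak, of 4 tags, in the 3'UTR (6389497 to 6389514), 9548 nt downstream of its exon. It held 0, 0 and 11.9 CPM, and without library 3 nothing is left of it. The 0 counts allow up to 18.9 CPM in library 1 and 14.3 CPM in library 2, both above the level in library 3, so the libraries cannot be told apart here. Markers of other cell types differed between the libraries as well. Choroid plexus markers (3 of 7 with tags in peaks, mainly Ttr, while Kl, Kcnj13, Aqp1 and Otx2 had none) summed to 157, 1055 and 299 CPM. Endothelium markers (3 of 5, with Cldn5 and Tek at none) summed to 50.3, 14.3 and 17.9 CPM and microglia markers (1 of 6) to 6.28, 0 and 5.97 CPM. Their part in the Dab2 tags was not tested.

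**Figure D4:**
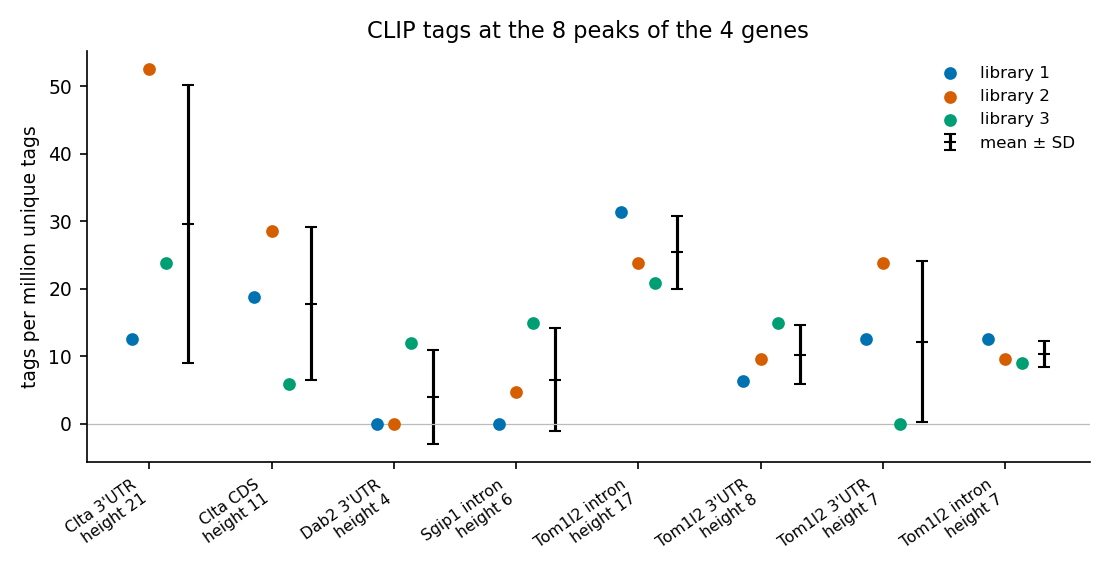
CLIP tags per 1000000 unique tags (vertical axis) in each of 3 wild-type libraries at the 8 peaks of Clta, Dab2, Sgip1 and Tom1l2 (horizontal axis, with the authors' peak height in tags). Points are libraries, and the bars beside them are mean ± SD. The Clta 3'UTR peak spans 12.6 to 52.5 and the Tom1l2 intron peaks vary least relative to their means, while the Dab2 and Sgip1 peaks and 1 Tom1l2 3'UTR peak have 0 in at least 1 library.

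Of 94 other genes of clathrin-mediated endocytosis and endosomal sorting, 6 had an exon in the RNA-seq list, 4 with less and 2 with more inclusion in the knockout. The RNA-seq list as a whole splits into 106 exons with less and 102 with more inclusion. Of the 66 list genes with a CLIP peak, 5 (7.58%) had an exon in the RNA-seq list, against 2.83% of all 4800 genes with a peak; the list was chosen with results known, and this difference was not tested. The median size of change over the 11 listed exons of these genes was 0.145. Less included in the authors' deposited table were exons of Synj2, a synaptojanin that dephosphorylates phosphoinositides (149 nt, 0.226, FDR 0.0334), and of Lrp8, a reelin and lipoprotein receptor (123 nt, 0.175, and 39 nt, 0.114). Also less included there were exons of Picalm, a clathrin assembly adaptor (24 nt, 0.144, FDR 0.00559), and of Epn2, an epsin that bends membrane (36 nt, 0.118, and 35 nt, 0.102).

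More included in the authors' deposited table were exons of Bin1, an amphiphysin that tubulates membrane (108 nt, -0.164, 93 nt, -0.145, and 129 nt, -0.136), and Reps1, a partner of Ral-binding protein in endocytosis (81 nt, -0.216, and an overlapping 78 nt form, -0.216). Reps1 was also in the array list, with a score of -0.54 (q-value 0). The heavy chain gene Cltc, the other light chain gene Cltb and the Tom1l2 relatives Tom1 and Tom1l1 were among the list genes without a listed exon.

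Of the 94 genes, 66 (70.2%) had a CLIP peak, a share close to that of the joint list. Their highest peak had a median of 7 tags, against 6 over all genes with a peak. The 5 genes with the highest peaks were Aak1, a kinase of AP-2 (53 tags), Hspa8, the chaperone that uncoats clathrin (49), Reps2 (39), the endophilin Sh3gl2 (35) and the dynamin Dnm1 (33). The peak of Hspa8 lies in coding sequence and the other 4 in 3'UTRs. With a highest peak of 21, Clta lay below these 5. Mutation sites numbered 5 in 4 genes of this list and 0 in the 4 genes described here.

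Exons of other genes with the most similar values were found by distance over the RNA-seq change, the array score and the log2 ratio of tags, each in SD units. For the 36 nt exon of Clta these were exons of Ganab (66 nt, at 0.418 SD units) and Ptprg (87 nt, 0.539) among 195 exons with all 3 measures. Near the 498 nt exon of Sgip1 lay an exon of Csnk1d (63 nt, 0.678). Over the 2 measures available for exons without an array score, among 287 exons, they were Camta1 (84 nt, 0.170) and Gas2 (63 nt, 0.281) for Dab2. Near the 63 nt exon of Tom1l2 lay an exon of Arhgef11 (30 nt, 0.0634), which also had 0 tags in both windows.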

How the data were processed

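Counts of read pairs, junction fragments, inclusion and skipping reads, unique tags and peak heights were deposited by the authors, with libraries pooled for reads of an exon and for peaks, per the file headers. Build mm9 was used, and TopHat 1.3.2, Bowtie and Novoalign are named in the submitters' processing notes. The sources used here give no settings. The change of inclusion and the array and read separation scores are scores the authors deposited, as are their p-values, q-values and FDRs, 2 of which exceed 1. Array intensities were deposited without their normalization, and their tissue heading is brain. The 2 conditions of the array run opposite to those of the reads: its score followed the log2 intensity ratio of condition A over B in 456 of 463 events, and array scores are given here with the sign of the RNA-seq change.

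Each line of a deposited tag file was counted as 1 tag and its score column was not used. Tags were assigned to windows by centre and to peaks by any overlap. Library size was the number of unique tags. Exons with at least 10 tags were tested with edgeR 4.0.16 in R 4.3.3, and DESeq2 1.42.0 was an alternative. Other steps ran in Python 3.11.15 with scipy 1.17.1 and numpy 2.4.6, tables were read with pandas 2.3.3, and figures were drawn with matplotlib 3.10.9. The test was checked on simulated data. Amplified reads do not stand for separate molecules, so intervals and limits of 0 counts hold counting error alone, and p-values measure the spread between CLIP libraries, which may be partly technical. Splicing values had no libraries of their own, so no model over animals was fitted.

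Named genes were the 4 genes, genes of the endocytosis list with a listed exon or 1 of the 5 highest peaks, and the 2 exons of other genes with the nearest values for each gene, of which 1 each for Sgip1 and Tom1l2 is not reported here. Genes and lists were chosen with earlier results of these data known. The alternative that counts shared tags once was added after seeing the data. No exon sequence is printed, as no mm9 sequence was used here.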

Additional observations from a re-analysis of the deposited data

How the results depend on the processing

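Over 15 results and 61 alternatives, 50 values were taken as unchanged. Tag ratios counted so when direction and side of the threshold held, and counts of exons or genes when they stayed within a fixed factor. Peak sums and pooled inclusion did when they moved by less than the spread between libraries or the counting interval. Both are wide for low counts. The number of exons called among all listed exons, 18, was 29 with windows of 2000 nt, 11 with DESeq2 and 3 to 6 without 1 CLIP library, where fewer exons reach 10 tags. Without the replicate block it was 19, with TMM 20 (13 downstream, 7 upstream), where the median log2 ratio fell from 1.13 to 0.56, and with shared tags counted once 19. The Tom1l2 ratio at its 60 nt exon was -4.79 in windows of 500 nt (edgeR adjusted p = 0.00333), a fitted value against 0 tags that sets no bound. Over its other alternatives the adjusted p ran from 0.0839 (DESeq2) to 0.747 (no minimum of tags), and leaving out library 1 gave -1.34. The other libraries, and all 3 for Sgip1, could not be left out with 10 tags remaining.

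By tag centre, the peak sums were 0 CPM for Clta and Sgip1, 1.99 for Tom1l2 and 3.98 as before for Dab2, since peaks are 1 to 18 nt wide. Peaks of height 10 or more left 25.4 CPM for Tom1l2 and none for Dab2 and Sgip1. Without 1 library the sums ran from 30.6 to 56.3 CPM for Clta, 2.39 to 9.85 for Sgip1, 0 to 5.97 for Dab2 and 53.8 to 64.8 for Tom1l2, and the lowest values for Sgip1 and Dab2 are those without library 3, for Clta without library 2. At a limit of 0.01, 3 of the 5 RNA-seq listings passed, without those of Dab2 and the 84 nt exon of Sgip1, and at a height of 10 or more 28 of the 66 list genes had a peak (42.4%, against 30.0% of all genes with a peak). No paired analysis was possible for splicing because no values per animal were used. Depth limits the tag counts throughout.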
